A study of Mus musculus with 90 samples.

Results

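The cell cycle and DNA replication genes described here are 39 genes that cells switch on to copy and divide their chromosomes, measured by RNA sequencing of mouse liver. They were chosen by gene symbol from a list of 39, and all 39 were found by symbol among the 27654 genes of the count tables. By role, 9 load or drive the replication fork (Mcm2 to Mcm7, Cdt1, Gins2 and Pcna) and 5 supply nucleotides (Rrm1, Rrm2, Tyms, Tk1 and Dut). Another 4 are transcription factors (E2f1, E2f2, E2f8 and Foxm1) and 7 are cyclins and kinases of S and M phase (Ccne1, Ccne2, Ccna2, Ccnb1, Ccnb2, Cdk1 and Cdk2). The remaining 14 act in mitosis (Cdc20, Bub1, Bub1b, Plk1, Aurka, Aurkb, Birc5, Cdca3, Cdca8, Kif11, Kif20a, Tpx2, Top2a and Mki67).

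Most hepatocytes of the adult liver rest outside the cell cycle and can return to it after tissue is lost. Before S phase, Cdt1 loads the MCM helicase onto replication origins, cyclin E with Cdk2 helps to start replication, and ribonucleotide reductase, thymidylate synthase and thymidine kinase provide the deoxynucleotides. E2F factors bind promoters of genes used at the start of S phase, whereas the MuvB complex, with Foxm1, acts on many genes used later, in mitosis.

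The study asked how the glucocorticoid receptor (GR, encoded by Nr3c1) of hepatocytes takes part in the liver's answer to caloric restriction. All mice were male C57BL/6J on chow, and each library was made from the polyA RNA of 1 liver. In the time series, WT stands for GRfl/fl mice and GR LKO for GRfl/fl x Alb-Cre mice, in which the albumin promoter drives Cre and so limits the deletion to hepatocytes; livers were taken at zeitgeber time (ZT) 0, 4, 8, 12, 16 and 20, with lights off at ZT12. Control diet (ctrl.) meant chow with feeding confined to the night in the final week, and caloric restriction (cal. res.) meant intake lowered stepwise, from 12 weeks of age, to 40% fewer calories, with food given at ZT12. On control diet there were 22 WT and 20 GR LKO livers (3 or 4 at each time point), and on caloric restriction 18 and 18 (3 at each). A separate diet experiment held 3 WT livers on control diet and 3 on caloric restriction at ZT12; its control titles read AL although their treatment label gives night-restricted feeding. A CORT experiment, also in WT at ZT12, held 3 control livers and 3 livers after corticosterone; the study's methods describe daily intraperitoneal injection of corticosterone or vehicle for 7 days in mice fed at night, and the labels of the controls give the feeding alone. In these experiments WT carries no further allele in the labels.

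Library totals ran from 10057544 to 17089004 counts in the control-diet time series and from 14235473 to 20788575 in the caloric restriction series. The diet experiment was deeper, at 36442195 to 39492146 counts, and the CORT experiment held 13739631 to 16077943. The 39 genes together took a median of 2066 counts per library in the control-diet series, 2637 in the caloric restriction series, 6892 in the diet experiment and 1961 in the CORT experiment. Levels are given as CPM, the counts of a gene scaled to a common library total by TMM within each experiment. At these depths the genes were scarce: 20 of the 39 had a median under 1 CPM over the 90 libraries, 3 had a median of 10 CPM or more, and 13 stood at 0 in at least 1 library. Bub1, a kinase of the spindle checkpoint, was at 0 in 58 libraries, and Mcm5, an MCM helicase subunit, in 36. Gins2, part of the replicative helicase, measured 2.79 to 6.77 CPM in the 6 libraries of the diet experiment, with a highest value of 2.48 CPM on control diet and 2.42 CPM on caloric restriction in the time series. E2f8, a repressor of the E2F family, measured 13.9, 14.03 and 14.5 CPM in the control livers of the diet experiment but 0.566, 1.22, 5.83 and 3.91 CPM in WT control livers at the same ZT12 in the time series. The labels name no sequencing batch. Between these experiments the depth, the feeding named in the control titles and the stated WT allele all differed. Their parts cannot be told apart in such comparisons, so the experiments were fitted separately.

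Nr3c1 was used to check the genotype labels. Its level in GR LKO livers ran from 16.2 to 29.0 CPM (median 21.5) on control diet and from 21.4 to 32.1 CPM (median 24.9) on caloric restriction. In WT livers of the time series it ran from 73.0 to 118 CPM (median 87.3) and from 70.1 to 113 CPM (median 93.9). The genotypes did not overlap on either diet; the source of the remaining transcript in GR LKO was not tested. In the diet experiment Nr3c1 was 88.7, 90.3 and 95.7 CPM on control diet against 84.3, 88.4 and 86.6 CPM on caloric restriction (log2 fold change -0.08, edgeR adjusted p = 0.317), and in the CORT experiment the log2 fold change was -0.06 (adjusted p = 0.808). Hepatocyte markers (7 genes, Alb the most abundant) summed to at least 67521 CPM in every library of the control-diet series and at least 98717 CPM in the caloric restriction series.

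A small number of livers stood apart before any comparison. The 14 mitosis genes summed to 67.2 CPM in GR LKO ctrl. ZT20 replicate 1, 36.9 CPM in WT ctrl. ZT20 replicate 4, 33.9 CPM in WT ctrl. ZT0 replicate 3 and 29.7 CPM in GR LKO cal. res. ZT20 replicate 1, whereas the other 74 libraries of the time series lay between 4.07 and 15.8 CPM. These sums were 6.43, 4.44, 4.09 and 3.33 times the median of the same genotype and diet, and the highest ratio among the others was 2.06. Of the 39 genes, 33, 33, 27 and 31 were higher in the respective library than in every library of its genotype and diet that did not stand apart. By role, in the order just given, this held for 14, 13, 13 and 12 of 14 mitosis genes, 7, 8, 6 and 9 of 9 licensing and fork genes, 4, 3, 2 and 4 of 5 nucleotide supply genes, 3, 4, 2 and 3 of 4 transcription factors and 5, 5, 4 and 3 of 7 cyclins and kinases. The 4 libraries were picked by a mitosis sum past 3 times that median, so the mitosis counts partly restate the choice. No share over all genes is given for these counts. Over the whole table, pairs of libraries were also compared by chi-square per degree of freedom. WT ctrl. ZT0 replicate 3 gave 110.5 and 73.4 with replicates 1 and 2, which gave 30.1 together. GR LKO ctrl. ZT20 replicate 1 gave 77.4 and 68.2, against 12.3 for the other pair. WT ctrl. ZT20 replicate 4 gave 21.4, 21.5 and 35.2, against 17.5 to 28.5. GR LKO cal. res. ZT20 replicate 1 gave 39.4 and 42.2, against 38.3. Mki67, the proliferation antigen Ki-67, read 0.487, 0.779, 0.617 and 7.19 CPM in the WT ctrl. livers at ZT20, and 14.7, 1.70 and 2.11 CPM in the GR LKO ctrl. livers at that time. Top2a, the topoisomerase that untangles replicated chromosomes, read 0.569, 0.779, 0.386 and 4.38 CPM in the same WT livers. In each group the high value came from 1 liver; the other livers at ZT20 on control diet did not overlap between genotypes for Mki67 and did for Top2a, which read 10.3, 1.40 and 0.615 CPM in GR LKO. The counts of called and rhythmic members between or within genotypes were therefore also computed without these 4 libraries, a choice made after seeing the data. Fold changes, marker medians and other pathway genes are given with all libraries unless stated.

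**Figure D1:**
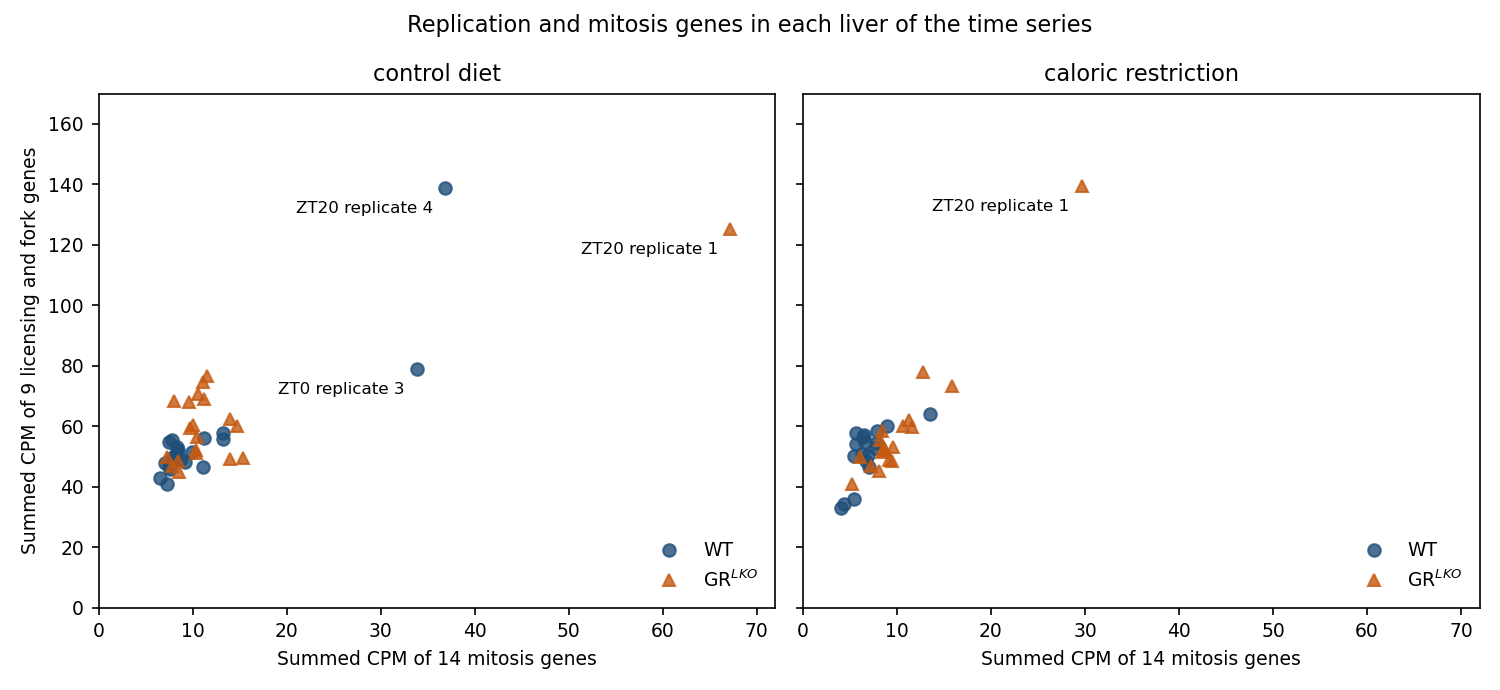
Summed CPM of the 14 mitosis genes (x axis) against summed CPM of the 9 licensing and fork genes (y axis) in each library of the time series, 1 panel per diet. The 4 labelled libraries lie to the right of the other 74, whose mitosis sums reach 15.8 CPM.

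Markers of other liver cells were also high in several of these livers, and their part in the excess was not tested. Lymphocyte markers (8 genes, Ptprc the most abundant) summed to 24.4 CPM in WT ctrl. ZT0 replicate 3, 18.6 CPM in WT ctrl. ZT20 replicate 4, 15.0 CPM in GR LKO ctrl. ZT20 replicate 1 and 27.8 CPM in GR LKO cal. res. ZT20 replicate 1, against series medians of 7.61 CPM on control diet and 8.04 CPM on caloric restriction. Stellate cell markers (6 genes, Dcn the most abundant) summed to 328, 256, 377 and 463 CPM in the same order, against medians of 171 and 229 CPM. Cholangiocyte markers (5 genes, Spp1 the most abundant) summed to 62.4, 85.8, 153 and 105 CPM against medians of 39.6 and 46.6 CPM, with Epcam at 0 in the livers on control diet. Kupffer and myeloid markers (7 genes, Clec4f the most abundant) summed to 197, 167, 101 and 268 CPM against medians of 101 and 128 CPM, so GR LKO ctrl. ZT20 replicate 1 was not above its median there. Neutrophil and precursor markers (8 genes) summed to 1.57, 1.07, 3.62 and 2.10 CPM against medians of 0.698 and 0.880 CPM. Hepatocyte markers summed to 82650.4, 82123, 78939 and 106695 CPM, against medians of the same genotype and diet of 95492.5 CPM for both WT livers and 78507 and 107471 CPM for the GR LKO livers. The other marker medians here pool both genotypes of a diet.

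The remaining marker lists did not share that order. Plasma cell markers (3 genes, Ighm the most abundant) summed to 10.2, 63.8, 13.1 and 11.3 CPM in the livers named above, against medians of 17.0 CPM on control diet and 5.55 CPM on caloric restriction. Erythroid markers (7 genes, Hbb-bs the most abundant) summed to 442, 381, 405 and 759.8 CPM against medians of 607 and 450.5 CPM, and endothelial markers (6 genes, Clec4g the most abundant) to 159, 147, 124 and 212 CPM against 129 and 192 CPM. Exocrine pancreas markers (5 genes) stayed at or under 2.08 CPM in these livers, although single libraries of the series reached 267 and 555 CPM. Adipocyte markers (4 genes, Cfd the most abundant) were all at 0 in both WT livers and summed to 3.15 and 1.51 CPM in the GR LKO livers, with Plin1 at 0 throughout the series. In bulk liver RNA, more cycling cells and more RNA per cycling cell cannot be told apart, nor can a change in hepatocytes be told from one in other cells.

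In WT livers at ZT12 the diet experiment asked what caloric restriction does. The genes did not move as a block: E2f8, E2f2, Mcm2 and mitosis genes such as Mki67 fell, while Pcna, Rrm2, Mcm7, Ccne2 and Ccnb2 rose. Of the 33 genes that passed the filter on low counts, edgeR called 5 higher on caloric restriction (23.5% of all 13062 genes tested) and 9 lower (23.6% of all genes), so calls were about as common as among all genes tested, of which 6155 were called. The median log2 fold change was -0.46, against 0.00 over all genes. Of all 39 genes, the 3 restricted livers lay above the 3 control livers for 7, below for 16, and overlapped for 16. The share of all genes so separated is not given, so this count is not read as a result about these genes. Mcm5, Ccnb1, Cdc20, Bub1, Aurkb and Tpx2 did not pass the filter. By role, 2 of 8 licensing and fork genes tested rose and 2 fell, 1 of 5 nucleotide supply genes rose and 1 fell, 2 of 4 transcription factors fell, 2 of 6 cyclins and kinases rose, and 4 of 10 mitosis genes fell.

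Among licensing and fork genes, Pcna, the sliding clamp that holds polymerases on DNA, measured 23.9, 24.8 and 24.6 CPM on control diet and 34.4, 38.2 and 43.1 CPM on caloric restriction. The groups were apart, and the log2 fold change was 0.66 (SE 0.09, adjusted p = 0.00148, n = 3 and 3). Mcm7, a helicase subunit, rose as well, from 10.95, 10.9 and 12.0 CPM to 13.1, 16.2 and 17.1 CPM (log2 0.45, SE 0.12, adjusted p = 0.0164). Other subunits of the same helicase moved the opposite way: Mcm2 was 2.31, 2.91 and 2.42 CPM on control diet against 1.36, 1.53 and 1.64 CPM on caloric restriction (log2 -0.75, SE 0.18, adjusted p = 0.0122). Mcm4, which lies outside the naming rule for this comparison and was added after its values were seen, was 3.58, 4.74 and 3.69 CPM against 2.95, 2.73 and 2.21 CPM (log2 -0.61, adjusted p = 0.0301). Mcm6 (log2 -0.46, adjusted p = 0.0968) and Cdt1 (log2 -0.07, adjusted p = 0.840) did not pass the test. Mcm5 stood at 0.0752, 0.183 and 0.184 CPM against 0.0851, 0.0779 and 0.219 CPM, with overlap.

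The nucleotide supply genes were split too. Rrm2, the small subunit of ribonucleotide reductase that is made mainly in S phase, was 3.78, 5.52 and 5.80 CPM on control diet and 9.36, 8.94 and 7.62 CPM on caloric restriction. Every restricted liver lay above every control liver (log2 0.78, SE 0.18, adjusted p = 0.0106). Dut, which removes dUTP from the nucleotide pool, fell from 5.86, 6.26 and 5.30 CPM to 4.62, 4.10 and 3.80 CPM (log2 -0.48, SE 0.13, adjusted p = 0.0221). Tyms, thymidylate synthase, was nearly level, at 11.1, 11.5 and 10.9 CPM against 10.3, 10.7 and 10.7 CPM (log2 -0.09, adjusted p = 0.398), and so was thymidine kinase Tk1, at 42.7, 35.6 and 44.5 CPM against 43.3, 45.4 and 42.0 CPM (log2 0.09, adjusted p = 0.473).

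The transcription factors gave the widest gap. E2f8 went from 13.9, 14.03 and 14.5 CPM on control diet to 1.48, 3.25 and 2.76 CPM on caloric restriction, with no overlap (log2 -2.50, SE 0.25, adjusted p = 0.000445). E2f2, an activator of the same family, fell from 0.5263, 0.681 and 0.870 CPM to 0.227, 0.234 and 0.355 CPM (log2 -1.34, SE 0.33, adjusted p = 0.0142). E2f1, the founding activator, was 3.26, 3.35 and 3.06 CPM against 1.45, 2.68 and 2.35 CPM; its groups were apart, but the test did not pass (log2 -0.58, adjusted p = 0.0805). Of the cyclins, Ccne2, a cyclin E, rose from 2.73, 2.62 and 2.66 CPM to 3.43, 4.55 and 5.33 CPM (log2 0.73, SE 0.18, adjusted p = 0.0154). The other cyclin E gene, Ccne1, overlapped between diets at 2.68, 1.78 and 3.37 against 0.823, 2.31 and 2.35 CPM (adjusted p = 0.342). Ccnb2, a mitotic cyclin named after its values were seen, was 0.451, 0.969 and 0.395 CPM against 1.02, 1.58 and 2.54 CPM (log2 1.501, SE 0.46, adjusted p = 0.0311). Ccnb1, the other mitotic B cyclin, did not pass the edgeR filter, at 0.226, 0.497 and 0.395 CPM against 0.0284, 0.0519 and 0.0819 CPM. Cdk1, the kinase of M phase, was 1.10, 1.57 and 1.24 CPM against 0.567, 0.909 and 0.847 CPM, apart but short of the threshold (log2 -0.75, adjusted p = 0.0535). Ccna2, the cyclin of S and G2 phase, overlapped (adjusted p = 0.226).

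The mitosis genes leaned lower: 8 of the 10 tested had a negative log2 fold change, with a median of -0.91. Over all genes 6531 of 13062 were lower. Mki67 was 0.902, 2.02 and 1.37 CPM on control diet and 0.624, 0.623 and 0.628 CPM on caloric restriction (log2 -1.19, SE 0.32, adjusted p = 0.0208). Its restricted livers were nearly level and all under the control livers. Cdca3, which promotes entry into mitosis, fell from 1.55, 1.62 and 1.29 CPM to 0.908, 0.753 and 0.492 CPM (log2 -1.05, adjusted p = 0.0169). Cdca8, a subunit of the chromosomal passenger complex, fell from 0.702, 0.786 and 0.764 CPM to 0.426, 0.442 and 0.355 CPM (log2 -0.88, adjusted p = 0.0211), and Bub1b, a spindle checkpoint kinase, from 0.752, 0.759 and 0.791 CPM to 0.397, 0.286 and 0.492 CPM (log2 -0.97, adjusted p = 0.0248). Top2a overlapped, at 0.627, 1.47 and 1.00 CPM against 0.340, 0.727 and 0.246 CPM (log2 -1.22, SE 0.48, adjusted p = 0.0710).

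**Figure D2:**
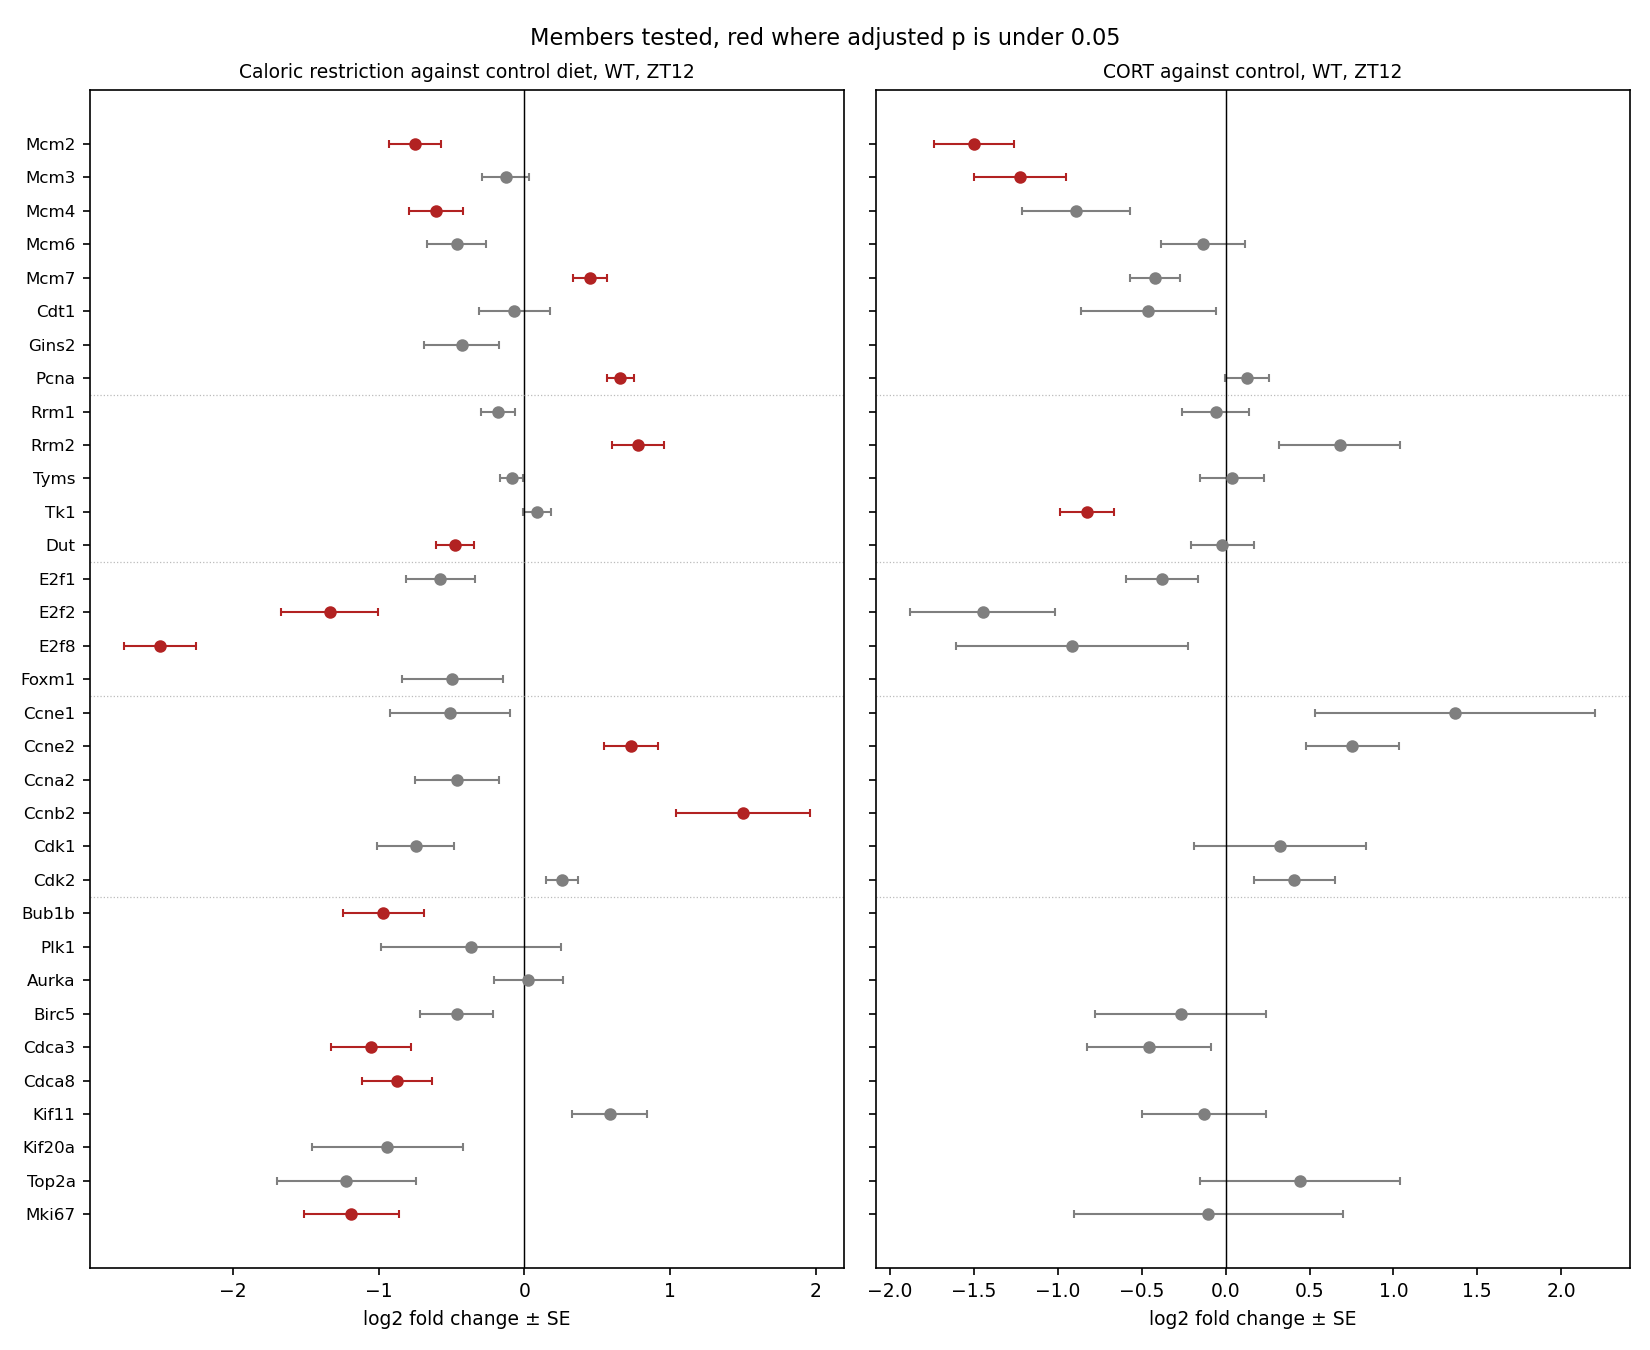
Log2 fold change (x axis, bars show the standard error) of each tested gene for caloric restriction against control diet (left) and CORT against control (right), in WT at ZT12, with 3 livers per group. Red marks an adjusted p under 0.05 and dotted lines separate the roles; 5 genes rise and 9 fall on caloric restriction, and 3 fall after CORT.

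The count moved when single livers were left out. Calls over all genes in those fits are not given here, so whether the move was particular to these genes was not tested. Without control replicate 2 edgeR called 6 of the genes and without caloric restriction replicate 2 it called 7, against 14 with all livers; leaving out any other liver gave 10 to 16. Pcna, Rrm2, E2f8 and Mcm2 passed in all 6 of these fits. Without control replicate 2 the adjusted p was 0.102 for Mcm4, 0.0597 for Mcm7, 0.0812 for Dut, 0.0527 for Ccne2, 0.0723 for Bub1b, 0.0598 for Cdca3, 0.0757 for Cdca8 and 0.0686 for Mki67. Without caloric restriction replicate 2 it was 0.0758 for Mcm4, 0.0583 for Mcm7, 0.0744 for Dut, 0.0576 for E2f2, 0.0516 for Ccne2, 0.0661 for Ccnb2, 0.0850 for Bub1b, 0.0555 for Cdca8 and 0.0641 for Mki67. Without control replicate 1, Mcm7 (0.0574), Dut (0.0651), Ccnb2 (0.102), Bub1b (0.0691), Cdca3 (0.0559) and Cdca8 (0.0542) missed the threshold, and without control replicate 3, E2f2 (0.0504), Ccnb2 (0.0910), Bub1b (0.0673) and Cdca8 (0.0590) did. Without caloric restriction replicate 3 Mcm4 (0.0919), Dut (0.0730), Ccnb2 (0.09996), Cdca8 (0.0797) and Mki67 (0.0583) missed it, and without replicate 1 of that diet Bub1b (0.0577) did. DESeq2 also called 5 higher and 9 lower, of 38 with a p-value, but not Bub1b (0.0928) or Cdca8 (0.118). In place of these it called Ccnb1 and Cdc20.

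The time series holds WT livers of both diets at ZT12. The diets come from separate count tables, so diet and anything else that differed between the tables cannot be told apart. There edgeR called 5 of 26 genes tested, all lower on caloric restriction: Mcm2, Dut, E2f1, E2f2 and Cdca3. Over all genes that fit called 4398 of 11550. Rrm2 was 7.55, 11.7, 7.27 and 11.01 CPM on control diet against 10.3, 8.85 and 9.83 CPM on caloric restriction (log2 0.03, adjusted p = 0.927), so its rise in the diet experiment had no counterpart among these livers. E2f8 was 0.566, 1.22, 5.83 and 3.91 CPM against 1.40, 0.558 and 0.955 CPM, with overlap (log2 -1.58, adjusted p = 0.134). Pcna was higher in each restricted liver, at 33.6, 30.7 and 29.1 CPM against 25.2, 27.2, 25.0 and 27.6 CPM, but did not pass (log2 0.23, adjusted p = 0.0568). The remaining calls of the diet experiment had adjusted p of 0.304 for Mcm4, 0.215 for Mcm7, 0.106 for Ccne2, 0.187 for Ccnb2, 0.0737 for Mki67 and 0.947 for Cdca8, whose log2 fold change was 0.04 there. Bub1b did not pass the count filter there and was not tested.

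Cell type markers differed between the diets, and their part was not tested. In the diet experiment lymphocyte markers summed to 8.35, 10.4 and 7.80 CPM on control diet and 5.08, 6.49 and 5.98 CPM on caloric restriction, and plasma cell markers to 9.35, 8.75 and 7.33 against 3.40, 3.66 and 5.74 CPM. Neutrophil and precursor markers lay on the same side, at 0.326, 0.786 and 0.791 against 0.170, 0.234 and 0.273 CPM, with Ltf at 0 in all 6 livers. Hepatocyte markers lay the other way, at 88826, 88222.8 and 94061 CPM against 153183, 154960 and 158865 CPM, as did endothelial markers (116, 149 and 153 against 194, 194 and 222 CPM) and stellate markers (205, 223 and 170.5 against 285, 247 and 283 CPM). Kupffer and myeloid markers (129, 109 and 138 against 81.9, 133 and 120 CPM) and cholangiocyte markers (49.0, 46.7 and 47.5 against 58.3, 38.2 and 38.6 CPM, Epcam at 0) overlapped.

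Of 131 other genes of the pathway, 130 were found and 101 tested in the diet experiment, of which 15 rose and 26 fell, against 23.5% and 23.6% of all genes. Genes of G1 and G0 gave 8 higher and 6 lower of 24, other licensing and fork genes 5 and 14 of 47, and other genes of G2 and mitosis 2 and 6 of 30. Btg1, an antiproliferative gene, rose from 26.3, 26.0 and 25.7 CPM to 96.2, 92.6 and 91.7 CPM (log2 1.85, SE 0.06, adjusted p = 1.72e-05). Ccng2, an atypical cyclin tied to arrest, rose from 11.4, 9.16 and 8.33 CPM to 42.8, 41.4 and 45.1 CPM (log2 2.16, SE 0.12, adjusted p = 8.67e-05). The inhibitor gene Cdkn1b, which encodes p27, rose from 19.8, 16.9 and 17.5 CPM to 31.8, 31.9 and 30.3 CPM (log2 0.80, SE 0.08, adjusted p = 0.000500). In the other direction, Mcm10, which helps to activate the helicase, went from 217, 192 and 197 CPM to 17.4, 25.1 and 30.3 CPM (log2 -3.05, SE 0.19, adjusted p = 0.000129). Cdk6, a kinase of G1, fell from 38.4, 37.5 and 33.6 CPM to 17.3, 12.6 and 11.7 CPM (log2 -1.40, SE 0.15, adjusted p = 0.000597). In each of these genes the diets were apart by more than the spread within either.

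The CORT experiment asked what a daily corticosterone surge does without a shortage of food. Mcm2, Mcm3 and Tk1 fell, and none of the genes rose in the edgeR fit. Of 24 genes tested, 0 were called higher (4.47% of all 11523 genes tested) and 3 lower (3.64% of all genes); 7 of the 24 had an unadjusted p under 0.05 in either direction, and DESeq2 called 0 higher and 3 lower of 28. The median log2 fold change was -0.13, against -0.01 over all genes. Of all 39 genes the CORT livers lay above the controls for 1, below for 8, and overlapped for 30. No share over all genes is given for this count, so its lean is not read as a result about these genes. Mcm2 was 4.02, 4.36 and 5.15 CPM in controls and 1.74, 1.33 and 1.70 CPM after CORT, with no overlap (log2 -1.50, SE 0.24, adjusted p = 0.0146). Mcm3, another helicase subunit, was 4.09, 3.92 and 2.82 CPM against 1.67, 1.73 and 1.23 CPM (log2 -1.23, SE 0.28, adjusted p = 0.0398). Tk1 was 51.9, 43.6 and 43.6 CPM against 30.2, 28.1 and 20.2 CPM (log2 -0.83, SE 0.16, adjusted p = 0.0262). Calls were lost when single livers were left out: 0 genes were called without control replicate 2 and 0 without control replicate 3. In the same way 1 was called without control replicate 1 and 1 without CORT replicate 3. Calls over all genes in those fits are not given here, so whether the loss was particular to these genes was not tested. For Mcm2 the adjusted p was 0.0677 and 0.0521 without control replicates 2 and 3. For Tk1 it was 0.0873, 0.0863 and 0.0671 without control replicates 1, 2 and 3 and 0.0505 without CORT replicate 3, and for Mcm3 it lay between 0.0577 and 0.148 whichever liver was left out, and at 0.0513 without the filter.

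Other members of this experiment overlapped or fell short of the threshold. Mcm4 measured 3.73, 5.41 and 6.73 CPM in controls and 3.71, 1.93 and 2.93 CPM after CORT (log2 -0.89, adjusted p = 0.134), and E2f2 measured 2.08, 2.30 and 1.24 CPM against 0.984, 0.398 and 0.681 CPM (log2 -1.45, SE 0.43, adjusted p = 0.0861). Both were apart between the groups and were named after their values were seen. Ccne2 was the gene whose CORT livers were all higher, at 3.03, 2.06 and 2.45 CPM against 1.65, 1.49 and 1.31 CPM (log2 0.76, SE 0.28, adjusted p = 0.139). Rrm2 overlapped, at 6.53, 4.604 and 3.37 CPM against 9.46, 4.38 and 9.40 CPM (adjusted p = 0.285), as did Pcna, at 19.96, 18.0 and 19.0 CPM against 21.5, 17.3 and 23.3 CPM (adjusted p = 0.607), and E2f8, at 1.65, 3.42 and 9.96 CPM against 1.06, 3.59 and 3.27 CPM (adjusted p = 0.456). None of the 5 mitosis genes tested passed in edgeR or DESeq2; Mki67 read 0.359, 0.747 and 1.58 CPM against 0.833, 1.53 and 0.136 CPM. Neutrophil and precursor markers summed to 0.0718, 0.809 and 0.687 CPM in controls and 2.50, 3.59 and 1.57 CPM after CORT (Mpo at 0), Kupffer and myeloid markers to 66.8, 84.6 and 89.8 against 95.8, 134 and 110 CPM, and endothelial markers to 95.1, 102 and 120 against 77.0, 85.9 and 92.0 CPM. Erythroid markers were lower in every CORT liver, at 699, 633 and 789 against 327, 562 and 299.9 CPM. Lymphocyte markers overlapped, at 4.38, 7.03 and 8.59 against 3.41, 6.31 and 5.04 CPM. The part of these cells in the gene changes was not tested. Of 84 other pathway genes tested, 2 rose and 4 fell, against 4.47% and 3.64% of all genes.

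Among those other genes Rpa1, which coats single-stranded DNA, fell from 27.9, 26.2 and 24.4 CPM to 15.5, 17.2 and 18.2 CPM (log2 -0.62, SE 0.11, adjusted p = 0.0178). Spc24, a kinetochore gene, fell from 14.9, 13.3 and 11.7 CPM to 8.48, 7.64 and 7.56 CPM (log2 -0.75, adjusted p = 0.0201), and Cks2, a Cdk-binding protein gene, from 12.4, 14.5 and 11.8 CPM to 7.95, 8.30 and 6.74 CPM (log2 -0.75, adjusted p = 0.0234). Pold1, the catalytic subunit of DNA polymerase delta, fell from 5.03, 4.04 and 5.02 CPM to 2.35, 2.13 and 2.31 CPM (log2 -1.05, adjusted p = 0.0274). Mcm10 rose, from 61.4, 76.4 and 82.6 CPM to 112, 128 and 165 CPM (log2 0.87, SE 0.17, adjusted p = 0.0262). It had fallen on caloric restriction in the diet experiment; the difference between the experiments was not tested.

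The time series asked what loss of GR in hepatocytes changes around the clock. Averaged over the 6 time points on caloric restriction, GR LKO livers held less Rrm2 than WT livers and more RNA of some helicase genes (Mcm2, Mcm3, Mcm4, Mcm6 and Gins2) and some mitosis genes (Cdc20, Kif20a, Tpx2, Top2a and Mki67). Of 34 genes tested, edgeR called 14 higher (15.6% of all 13041 genes tested) and 1 lower (17.3% of all genes). The median log2 fold change was 0.23, against 0.00 over all genes. Of licensing and fork genes 5 of 8 rose, and of nucleotide supply genes 2 of 5 rose and 1 fell. Of transcription factors 1 of 4 rose, of cyclins and kinases 1 of 6 rose, and of mitosis genes 5 of 11 rose. The 11 mitosis genes tested all had a positive fold change, where 6552 of all 13041 genes did. Mcm5, Ccnb1, Bub1, Plk1 and Aurkb did not pass the filter. For all 39 genes the WT and GR LKO livers of the whole day overlapped. The counts also moved when libraries were left out. Calls over all genes in those fits are not given here, so whether the moves were particular to these genes was not tested. Without the GR LKO cal. res. ZT20 replicate 1 library 13 rose and 2 fell, Ccna2 leaving (adjusted p = 0.0665) and Ccne1 entering. Without ZT20 6 rose and 2 fell, and Mcm2 (adjusted p = 0.0848), Mcm6 (0.250), Tyms (0.120), Dut (0.0861), Ccna2 (0.162), Kif20a (0.0681) and Mki67 (0.0791) were not called and Tpx2 did not pass the filter; Mcm3, Mcm4, Gins2, Foxm1, Cdc20 and Top2a still were.

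Rrm2 changed most. On caloric restriction it ran from 2.35 to 10.3 CPM (median 5.01) in the 18 WT livers and from 0.717 to 4.14 CPM (median 1.17) in the 18 GR LKO livers. The single high GR LKO value was ZT20 replicate 1; without it the highest was 2.04 CPM, under the lowest WT value, and the genotypes no longer overlapped. The log2 fold change was -1.83 (SE 0.12, adjusted p = 1.34e-12), and the adjusted p was at most 9.51e-09 in the 17 alternative fits. On control diet Rrm2 ran from 1.60 to 14.8 CPM (median 4.41) in 22 WT livers and from 0.853 to 10.5 CPM (median 1.72) in 20 GR LKO livers, with the top of each range in a library that stood apart (11.7 and 3.77 CPM without these). There the log2 fold change was -1.20 (SE 0.22, adjusted p = 0.000136), and at most 0.0115 in 19 alternative fits. The other subunit, Rrm1, did not pass on either diet (log2 0.10 on each, adjusted p = 0.244 and 0.448).

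The helicase genes Mcm2, Mcm3, Mcm4, Mcm6 and Gins2 moved the opposite way from Rrm2. On caloric restriction Mcm4 ran from 2.04 to 5.23 CPM (median 3.04) in WT and from 2.53 to 11.2 CPM (median 4.47) in GR LKO livers (log2 0.66, SE 0.11, adjusted p = 1.87e-05). Mcm3 ran from 0.558 to 4.55 CPM (median 2.73) against 1.71 to 12.8 CPM (median 3.84; log2 0.66, adjusted p = 0.00154), and without the high library the GR LKO median was 3.77 CPM and the highest value 6.08 CPM. Gins2 ran from 0 to 0.714 CPM (median 0.289) against 0.174 to 2.42 CPM (median 0.551; log2 1.37, SE 0.25, adjusted p = 8.21e-05). In these genes the ranges overlapped and the medians were apart. Mcm6 ran from 1.65 to 8.01 CPM (median 2.92) against 1.66 to 35.4 CPM (median 4.50; log2 0.70, adjusted p = 0.00112), its highest value without the high library being 14.6 CPM. Mcm2 had medians of 2.30 and 2.22 CPM, yet a log2 fold change of 0.47 (adjusted p = 0.0116) in a fit that compares genotypes within each time point. Without the livers of GR LKO replicate 1, Mcm2 had an adjusted p of 0.168. Pcna (log2 0.04, adjusted p = 0.512) and Mcm7 (log2 -0.06, adjusted p = 0.602) did not pass.

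Smaller differences came from Tyms and Dut on caloric restriction. Tyms ran from 7.59 to 11.9 CPM (median 9.29) in WT and from 7.82 to 13.0 CPM (median 10.7) in GR LKO livers (log2 0.17, SE 0.05, adjusted p = 0.00767), and missed the threshold without ZT0 (0.0614), ZT16 (0.112), ZT20 (0.120) or WT replicate 3 (0.0557). Dut had medians of 5.14 and 5.83 CPM (log2 0.20, adjusted p = 0.0164) and was named after its values were seen; it did not pass without WT replicate 1 (0.0509) or 2 (0.0768) or without GR LKO replicate 1 (0.0979) or 3 (0.0682). Foxm1, the activator of mitosis genes, had medians of 0.214 and 0.463 CPM (log2 0.97, SE 0.30, adjusted p = 0.0123), with an adjusted p of 0.104 without ZT0, 0.0575 without WT replicate 2 and 0.264 without GR LKO replicate 3. E2f1 (log2 0.24, adjusted p = 0.157) and E2f8 (log2 0.52, adjusted p = 0.0816) did not pass. Ccna2 ran from 0.160 to 0.918 CPM (median 0.384) in WT and from 0.264 to 1.56 CPM (median 0.556) in GR LKO livers (log2 0.55, adjusted p = 0.0396), but it passed in 5 of 17 alternative fits. Its adjusted p was 0.0612, 0.101 and 0.236 without ZT0, ZT8 and ZT16, 0.0645 with DESeq2, 0.0610 without the filter, 0.0710, 0.0950 and 0.0506 without WT replicates 1, 2 and 3, and 0.200 and 0.111 without GR LKO replicates 1 and 2. Ccne1, Ccne2, Ccnb2, Cdk1 and Cdk2 did not pass with all libraries.

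The mitosis genes that rose were low in level. Top2a ran from 0.107 to 1.33 CPM (median 0.414) in WT and from 0.442 to 6.29 CPM (median 0.969) in GR LKO livers on caloric restriction; without the high library the GR LKO median was 0.931 and the highest value 1.65 CPM (log2 1.17, SE 0.23, adjusted p = 0.000200 with all libraries). Cdc20, the activator of the anaphase-promoting complex, ran from 0 to 0.561 CPM (median 0.129) against 0.115 to 1.51 CPM (median 0.439; log2 1.46, SE 0.29, adjusted p = 0.000304). Both kept passing in all 17 alternative fits. Mki67 ran from 0.140 to 3.88 CPM (median 0.626) against 0.564 to 6.51 CPM (median 1.38; log2 0.97, adjusted p = 0.00431). Tpx2, a spindle assembly factor, had medians of 0.168 and 0.419 CPM (log2 1.14, adjusted p = 0.00961) and an adjusted p of 0.0743 without the livers of GR LKO replicate 1. Kif20a, a kinesin of cytokinesis named after its values were seen, had medians of 0.339 and 0.724 CPM (log2 1.61, SE 0.57, adjusted p = 0.0317), and passed in 9 of 17 alternative fits. Its adjusted p was 0.0559 without ZT8, 0.222 without ZT16, 0.0802 and 0.0872 without WT replicates 2 and 3, and 0.103, 0.0682 and 0.107 without GR LKO replicates 1, 2 and 3.

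On control diet fewer of the genes passed. Of 38 genes tested, edgeR called 5 higher in GR LKO (10% of all 12834 genes tested) and 2 lower (8.59% of all genes), with a median log2 fold change of 0.15 against 0.00 over all genes; Bub1 did not pass the filter. Those higher were Mcm2, Mcm3, Mcm4, Gins2 and Tyms, and those lower were Rrm2 and Ccne1. Mcm4 ran from 2.47 to 13.5 CPM (median 3.71) in WT and from 2.74 to 10.7 CPM (median 5.87) in GR LKO livers (log2 0.45, SE 0.13, adjusted p = 0.0101). Mcm3 had medians of 2.54 and 5.23 CPM (log2 0.58, SE 0.20, adjusted p = 0.0339), Mcm2 of 3.34 and 4.89 CPM (log2 0.45, adjusted p = 0.0364) and Gins2 of 0.317 and 0.671 CPM (log2 0.84, SE 0.29, adjusted p = 0.0388). Tyms had medians of 8.45 and 9.26 CPM (log2 0.17, SE 0.05, adjusted p = 0.00697). Ccne1 ran from 0.162 to 3.91 CPM (median 0.956) in WT and from 0.0875 to 3.72 CPM (median 0.612) in GR LKO livers (log2 -0.68, SE 0.23, adjusted p = 0.0368). All ranges overlapped. The 13 mitosis genes tested all had a positive fold change here too (median log2 0.24), where 6275 of all 12834 genes did. Of these 13, edgeR called 0, with 0 at an unadjusted p under 0.05. DESeq2 also called 0 of them, and called the same 7 members as edgeR. These values include the libraries that stood apart. By time the mitosis genes were not all higher. Higher and lower numbered 2 and 5 at ZT0, 7 and 0 at ZT4, and 6 and 0 at ZT8. They numbered 1 and 3 at ZT12, 7 and 1 at ZT16, and 10 and 0 at ZT20.

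**Figure D3:**
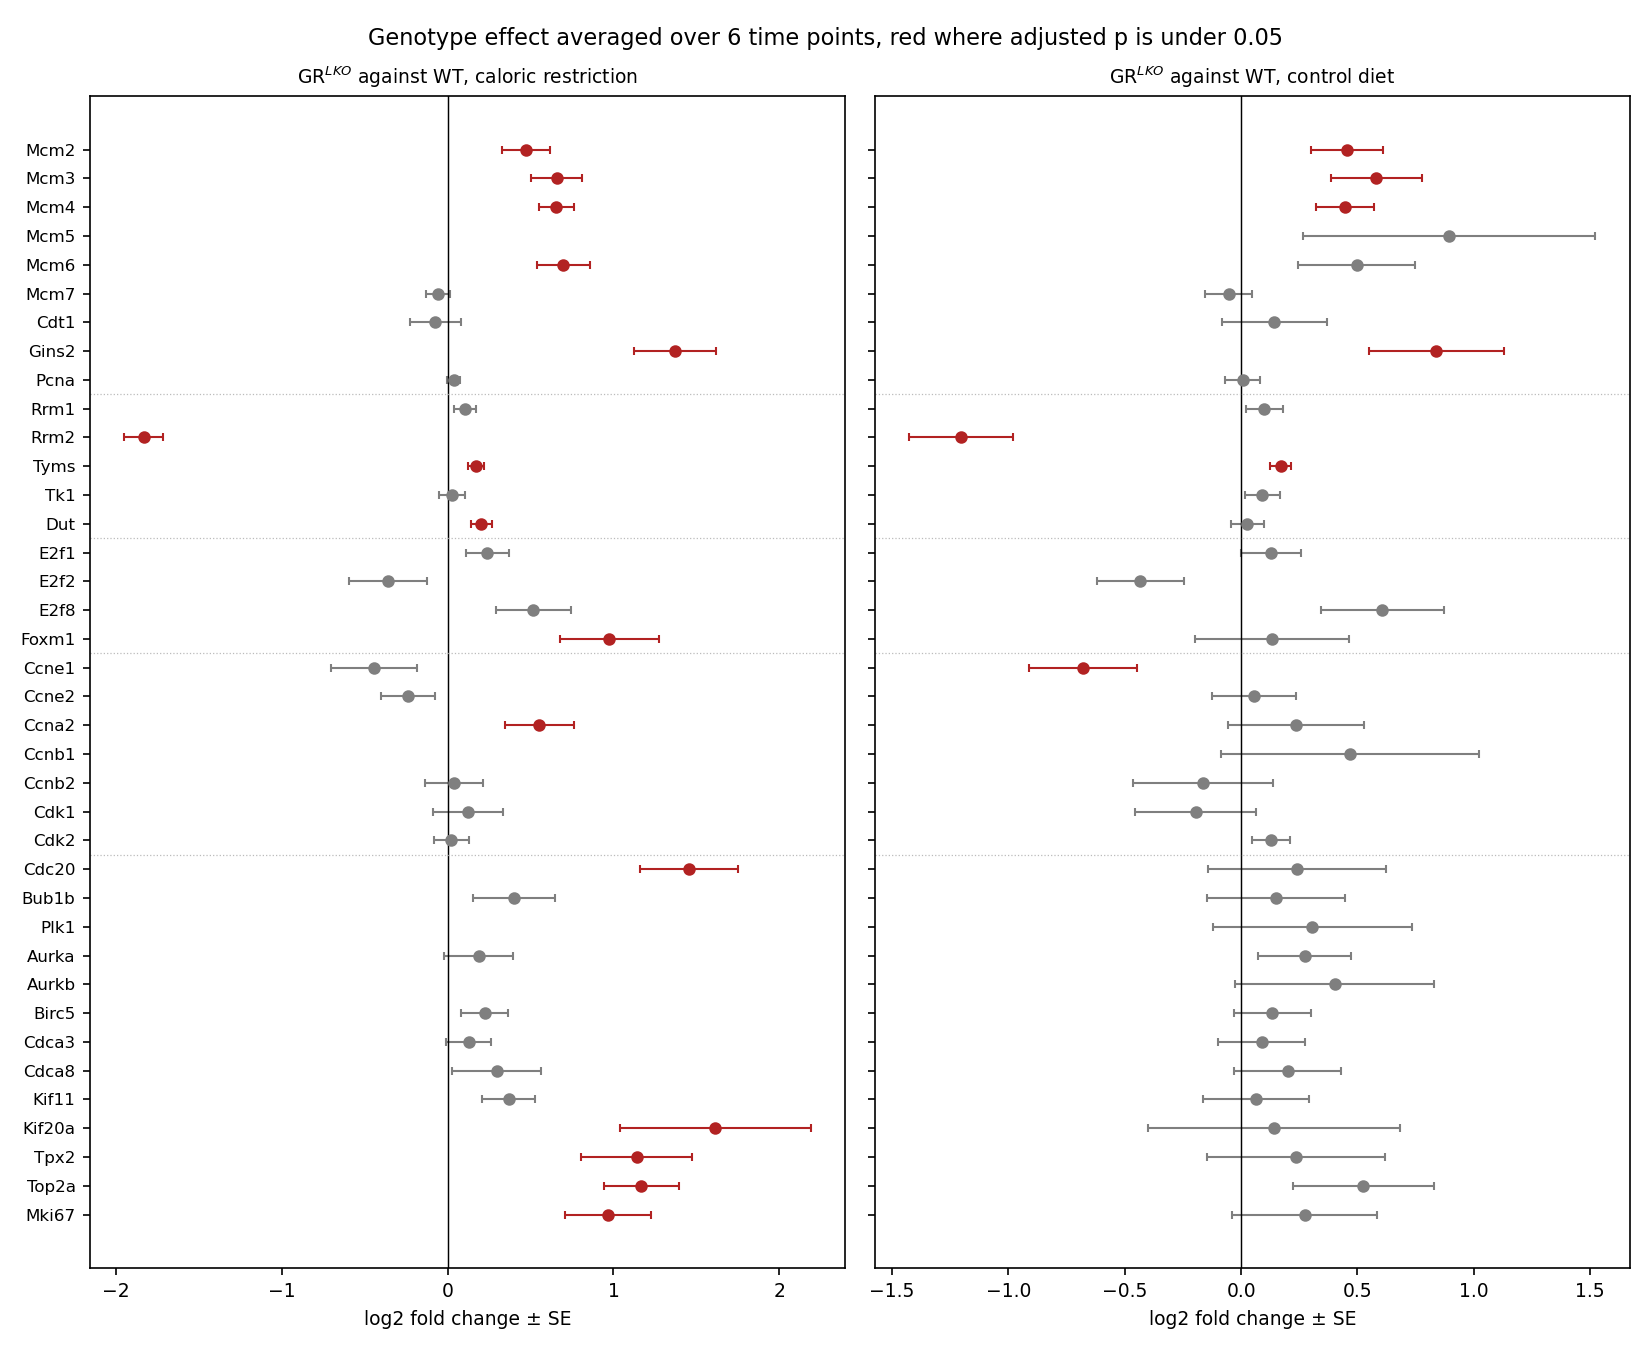
Log2 fold change (x axis, bars show the standard error) of GR LKO against WT averaged over 6 time points for each tested gene, on caloric restriction (left) and on control diet (right). Red marks an adjusted p under 0.05; Rrm2 lies lowest among the red genes on each diet, at -1.83 and -1.20.

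The control-diet count moved with what was left out. Calls over all genes in these fits are not given here, so whether the moves were particular to these genes was not tested. Without the 3 high libraries of that diet edgeR called 7 higher and 2 lower, adding Mcm6 and Top2a. Leaving out 1 time point gave 4 genes without ZT0, 2 without ZT4, 3 without ZT8, 4 without ZT12, 3 without ZT16 and 6 without ZT20. Mcm2 then had an adjusted p of 0.0840, 0.113, 0.0735 and 0.128 without ZT0, ZT4, ZT8 and ZT16, and Mcm3 of 0.0677, 0.0836, 0.0555, 0.0597 and 0.123 without ZT0, ZT4, ZT8, ZT12 and ZT16. Mcm4 missed the threshold without ZT4 (0.0508) and ZT16 (0.118), and Gins2 without ZT4 (0.0551), ZT8 (0.0527), ZT12 (0.0753) and ZT16 (0.297). Tyms missed it without ZT20 (0.0835), and Ccne1 without ZT0 (0.192), ZT4 (0.141), ZT8 (0.0523) and ZT12 (0.0621). Leaving out the livers of 1 replicate number also ended calls. For Mcm2 the adjusted p was 0.170 and 0.174 without WT replicates 1 and 2 and 0.0994, 0.0521 and 0.177 without GR LKO replicates 1, 2 and 3. For Mcm3 it was 0.186 and 0.0718 without WT replicates 1 and 2 and 0.109, 0.0828, 0.108 and 0.0520 without GR LKO replicates 1, 2, 3 and 4. For Gins2 it was 0.0735 and 0.147 without WT replicates 1 and 2, 0.166, 0.0990 and 0.0808 without GR LKO replicates 1, 2 and 3, and 0.0561 without the filter. For Mcm4 it was 0.0535 and 0.0524 without WT replicates 1 and 2 and 0.104 without GR LKO replicate 3, and for Ccne1 0.112 and 0.122 without WT replicates 3 and 4, 0.241 without GR LKO replicate 3 and 0.0546 without the filter.

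Marker sums of other cells stood beside the genotype difference as follows, and their part was not tested. On caloric restriction the median sum of lymphocyte markers was 8.12 CPM for WT livers against 8.03 CPM for GR LKO; on control diet it was 7.24 against 7.88 CPM. Kupffer and myeloid markers had medians of 128 and 135 CPM on caloric restriction and 109 and 96.9 CPM on control diet, and stellate markers of 231 and 226 and of 177 and 163 CPM. Endothelial markers had medians of 172 and 205 CPM on caloric restriction and 132 and 129 CPM on control diet, and erythroid markers of 394 and 461 and of 528 and 634 CPM. Cholangiocyte markers had medians of 44.1 and 56.1 CPM on caloric restriction and 41.3 and 37.6 CPM on control diet. Plasma cell markers were higher in GR LKO, with medians of 11.04 against 4.57 CPM on caloric restriction and 38.6 against 11.7 CPM on control diet, and adipocyte markers had a median of 11.3 CPM in GR LKO and 0 in WT on control diet. Hepatocyte markers were lower in GR LKO, with medians of 107471 against 133318 CPM on caloric restriction and of 78507 against 95492.5 CPM on control diet. These medians pool the time points. At ZT12 on caloric restriction the genotypes were apart, WT first, for lymphocyte markers (2.25, 3.97 and 3.15 against 5.30, 4.00 and 6.54 CPM), Kupffer and myeloid markers (43.3, 69.6 and 50.5 against 121, 97.4 and 123 CPM), endothelial markers (164, 149 and 179 against 212, 198 and 221 CPM), plasma cell markers (1.47, 2.02 and 1.52 against 2.99, 4.90 and 4.83 CPM), cholangiocyte markers (26.4, 31.2 and 28.9 against 31.4, 32.4 and 31.7 CPM) and hepatocyte markers (160829, 163966 and 165946 against 120788, 129093 and 110827 CPM), and overlapped for stellate, erythroid and neutrophil markers. At ZT12 on control diet lymphocyte, Kupffer and hepatocyte markers overlapped and plasma cell markers did not (6.42, 7.15, 1.20 and 3.43 against 7.91, 18.9, 34.4 and 16.6 CPM). At ZT20 on caloric restriction plasma cell markers were apart (5.57, 10.1 and 4.34 CPM in WT against 11.3, 35.5 and 19.9 CPM in GR LKO). Adipocyte markers were apart there too (0, 0 and 0 against 1.51, 0.0589 and 3.39 CPM), and the other lists overlapped.

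Whether the genotype effect differed between diets was tested as an interaction over the day. Of 38 genes tested edgeR called 0, against 3.01% of all genes; 2 had an unadjusted p under 0.05, and DESeq2 called 0 of 35. The median was 0.14, against 0.00 over all genes. Rrm2 had an interaction of -0.62 (SE 0.26, adjusted p = 0.214), Cdc20 of 1.21 (SE 0.52, adjusted p = 0.219), Top2a of 0.64 (SE 0.40, adjusted p = 0.451) and Mki67 of 0.69 (SE 0.42, adjusted p = 0.434). So the larger number of calls on caloric restriction was not shown to be a difference between diets for any of the 38 genes. Without the high libraries the count was 0, and without the livers of WT replicate 4 it was 1, Rrm2. Among 119 other pathway genes tested, Ccnf, the cyclin F gene whose product degrades Rrm2 protein, had an interaction of -0.82 (SE 0.16, adjusted p = 0.000767).

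Among the other pathway genes, the day average on caloric restriction gave 28 higher and 10 lower of 103 tested, where 15.6% and 17.3% of all genes were called in these directions. Other licensing and fork genes gave 15 higher and 1 lower of 47, genes of G2 and mitosis 8 and 4 of 31, and genes of G1 and G0 5 and 5 of 25. Ccnf ran from 4.49 to 27.9 CPM (median 10.3) in WT and from 1.67 to 7.29 CPM (median 2.65) in GR LKO livers (log2 -1.96, SE 0.11, adjusted p = 3.17e-13). Lig1, the ligase that joins Okazaki fragments, ran from 0.795 to 6.94 CPM (median 2.73) against 2.19 to 10.5 CPM (median 6.30; log2 1.15, SE 0.13, adjusted p = 4.62e-08). Rfc5, a subunit of the clamp loader, had medians of 7.63 and 9.67 CPM (log2 0.39, adjusted p = 3.02e-06), Cdk6 of 32.4 and 39.5 CPM (log2 0.35, adjusted p = 5.14e-06) and Ccng1, a target of p53, of 27.4 and 32.1 CPM (log2 0.26, adjusted p = 5.66e-06). On control diet 9 rose and 4 fell of 112, against 10% and 8.59% of all genes. Ccnf had medians of 12.0 and 5.14 CPM there (log2 -1.13, SE 0.11, adjusted p = 8.63e-10), and E2f7, the partner of E2f8, of 0.774 and 0.224 CPM (log2 -1.66, SE 0.23, adjusted p = 1.29e-06). Wee1, the kinase that restrains Cdk1, had medians of 15.9 and 17.0 CPM (log2 0.35, adjusted p = 0.000402), E2f4, a repressive E2F, of 15.9 and 14.3 CPM (log2 -0.19, adjusted p = 0.000741), and Cdk6 of 31.0 and 40.0 CPM (log2 0.21, adjusted p = 0.00242).

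At single time points, with 3 or 4 livers a genotype, Rrm2 made 3 of the 6 edgeR calls on caloric restriction. On caloric restriction WT livers held 5.24, 5.12 and 3.09 CPM of Rrm2 at ZT8 and GR LKO livers 1.24, 1.16 and 1.27 CPM (log2 -1.86, SE 0.27, adjusted p = 0.0170). At ZT12 the values were 10.3, 8.85 and 9.83 CPM against 1.09, 1.184 and 1.04 CPM (log2 -3.12, SE 0.18, adjusted p = 0.000178), and at ZT16 7.73, 5.53 and 5.54 CPM against 1.04, 0.769 and 0.884 CPM (log2 -2.79, SE 0.25, adjusted p = 0.00162). The genotypes were apart at each of these times. At ZT20 they overlapped, at 4.89, 3.85 and 5.21 CPM against 4.14, 1.178 and 1.73 CPM (adjusted p = 0.301); without the 4.14 CPM library, which stood apart, Rrm2 was called lower there. At ZT0 and ZT4 it was lower in all GR LKO livers without passing (log2 -0.69 and -1.53, adjusted p = 0.219 and 0.0569). The call at ZT8 missed the threshold without GR LKO replicate 1, 2 or 3 (adjusted p = 0.0809, 0.0772 and 0.0743), while those at ZT12 and ZT16 held in all 12 alternative fits of each.

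In the separate edgeR fits Mcm7, Mcm4 and Mcm6 also passed at a single time on caloric restriction. Mcm7 fell at ZT12, from 14.2, 12.6 and 12.4 CPM in WT to 9.73, 8.79 and 8.55 CPM in GR LKO (log2 -0.54, SE 0.12, adjusted p = 0.0228). Mcm4 rose at ZT20, from 3.98, 3.55 and 3.65 CPM to 11.2, 8.07 and 9.60 CPM (log2 1.38, SE 0.18, adjusted p = 0.0180), and so did Mcm6, from 2.45, 2.96 and 2.61 CPM to 35.4, 11.1 and 14.6 CPM (log2 2.95, SE 0.46, adjusted p = 0.0336). All GR LKO livers were above all WT livers in both, and both were called without the library that stood apart. Leaving out single livers ended these calls. Without WT replicate 1, 2 or 3 the adjusted p was 0.0922, 0.0820 and 0.103 for Mcm4 and 0.152, 0.122 and 0.139 for Mcm6. For Mcm7 it was 0.0659, 0.0548 and 0.0591 without WT replicates 1, 2 and 3, and 0.0641 and 0.0800 without GR LKO replicates 2 and 3. In all, edgeR made 6 calls over the 6 time points: 0 of 26 genes tested at ZT0 (0.502% of all genes), 0 of 29 at ZT4 (0.690%), 1 of 26 at ZT8 (2.55%), 2 of 24 at ZT12 (15.3%), 1 of 20 at ZT16 (4.54%) and 2 of 28 at ZT20 (1.47%). At an unadjusted p under 0.05 there were 5 genes at ZT0 and 2 at ZT4, where DESeq2 called 0 and 1 (Rrm2). At the later times there were 6, 6, 5 and 15, the last at ZT20, where 26 of the 28 genes were higher in GR LKO with a median log2 fold change of 0.91. Of all 12076 genes tested at ZT20, 6133 were higher. These ZT20 values include the GR LKO replicate 1 library, which stood apart. Summed over the time points DESeq2 made 13 calls and 1 fit of all libraries of that diet made 22, of which 7 and 14 were at ZT20. These sums also include that library, and shares over all genes in these fits are not given here.

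On control diet the edgeR calls at single times came to 2, both Rrm2, against 5 with DESeq2, which added Mcm4, Mcm6 and Gins2 at ZT16. At ZT12 WT livers held 7.55, 11.7, 7.27 and 11.01 CPM and GR LKO livers 1.44, 0.853, 1.99 and 2.42 CPM (log2 -2.49, SE 0.32, adjusted p = 0.00440). At ZT16 the values were 7.52, 9.65, 3.98 and 6.93 CPM against 2.24, 1.76 and 1.74 CPM (log2 -1.87, SE 0.31, adjusted p = 0.0278), again with no overlap. At ZT20 they were 4.47, 4.48, 3.01 and 14.8 CPM against 10.5, 1.497 and 1.494 CPM, where the high value of each genotype came from a library that stood apart (adjusted p = 0.860). The call at ZT12 held in 14 alternative fits. That at ZT16 did not: its adjusted p was 0.0584, 0.0620 and 0.0654 without WT replicates 1, 2 and 4, and 0.0716, 0.104 and 0.0986 without GR LKO replicates 1, 2 and 3, and 0.0511 with 1 fit of all libraries of that diet. By time point edgeR called 0 of 24 genes at ZT0 (0.536% of all genes), 0 of 24 at ZT4 (0.195%), 0 of 25 at ZT8 (1.43%), 1 of 24 at ZT12 (2.08%), 1 of 27 at ZT16 (1.98%) and 0 of 29 at ZT20 (0.420%). Where it called 0, the genes at an unadjusted p under 0.05 numbered 4, 4, 1 and 2, and DESeq2 called 0 at each of these times. Without the 3 high libraries of this diet the count was 0 of 24 at ZT0, with 6 at an unadjusted p under 0.05, and 0 of 24 at ZT20, with 9.

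The sampling around the clock also showed which of the genes cycled over the day. With JTK_CYCLE at a period of 24 h, 8 of 39 genes were rhythmic in WT livers on control diet (30.8% of all genes tested), 11 in WT on caloric restriction (27.7%), 13 in GR LKO on control diet (27.4%) and 12 in GR LKO on caloric restriction (25.4%). Differences in rhythm between groups were not tested. Without the high libraries the counts were 9 in WT and 13 in GR LKO on control diet and 8 in GR LKO on caloric restriction. Leaving out the livers of 1 replicate number gave 3 to 5, 3 to 5, 6 to 12 and 1 to 2 rhythmic genes in the order above, and calls over all genes fell in these fits too, on caloric restriction from 5167 of 18651 genes to 1657 to 1896 in WT and from 4814 of 18932 to 979 to 1722 in GR LKO.

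Rrm2 passed JTK_CYCLE in WT and not in GR LKO. In WT livers its mean was highest at ZT12 and lowest at ZT4, at 9.39 and 2.28 CPM on control diet (adjusted p = 0.00915) and at 9.67 and 2.57 CPM on caloric restriction (adjusted p = 0.00272). In GR LKO livers its mean was highest at ZT20, at 4.49 CPM on control diet (adjusted p = 1.00) and 2.35 CPM on caloric restriction (adjusted p = 0.743), where the libraries that stood apart lie. Rrm2 did not pass in WT on control diet without replicate 1 or replicate 2, nor in WT on caloric restriction without replicate 2, and the edgeR test for any difference between time points called it in GR LKO on caloric restriction. Ccne1 peaked at ZT12 in WT on control diet, at 3.01 CPM against 0.455 CPM at ZT4 (adjusted p = 0.000605), and at ZT8 on caloric restriction, at 2.48 CPM against 0.184 CPM at ZT16 (adjusted p = 0.00627). In GR LKO it passed on control diet (2.28 CPM at ZT12, 0.164 CPM at ZT4, adjusted p = 0.00126) and not on caloric restriction (adjusted p = 0.148). The Ccne1 call in WT on caloric restriction was lost without replicate 1, 2 or 3, while its calls on control diet held whichever replicate was left out. Ccne2 was rhythmic in all of the groups, with adjusted p of 0.000209 and 0.000178 in WT on control diet and caloric restriction and of 0.00346 and 0.00684 in GR LKO. Leaving out any 1 replicate ended this in GR LKO on caloric restriction, as did leaving out replicate 2 in GR LKO on control diet, and Ccne2 stayed rhythmic in WT in all of these fits. Its mean in WT on caloric restriction went from 0.396 CPM at ZT0 to 3.39 CPM at ZT12.

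Rhythmic helicase genes had their highest means between ZT20 and ZT4, and in WT on control diet none of the Mcm genes or Gins2 passed JTK_CYCLE run on all genes. When only genes past the count filter were tested, Mcm2 did pass there. Of the edgeR tests in that group, the one for a daily wave called Mcm2 and Mcm4, and the one for any difference between time points called Mcm4. Mcm4 in GR LKO livers was highest at ZT0 on control diet (9.05 CPM, against 3.43 CPM at ZT8, adjusted p = 0.00210) and at ZT20 on caloric restriction (9.64 CPM, against 3.10 CPM at ZT12, adjusted p = 0.00303). In WT it passed on caloric restriction, with 4.48 CPM at ZT0 and 2.22 CPM at ZT16 (adjusted p = 0.00804). Mcm2 had its highest mean at ZT20 on caloric restriction in both genotypes, at 2.81 CPM in WT (adjusted p = 0.0135) and 6.51 CPM in GR LKO (adjusted p = 0.0300), with lows of 1.16 and 1.39 CPM at ZT12. In WT on caloric restriction Mcm6 and Gins2 were highest at ZT4, at 5.25 and 0.474 CPM (adjusted p = 0.0104 and 0.0430). Mcm2, Mcm4 and Gins2 did not pass in that group without replicate 1, 2 or 3, and Mcm6 passed only without replicate 3. On caloric restriction in GR LKO, Mcm2 was lost without replicate 1, 2 or 3 and Mcm4 without replicate 3. Mcm4 in GR LKO on control diet passed in each such fit. The licensing factor gene Cdt1 peaked in the light phase in every group: at ZT8 with 3.24 CPM in WT on control diet (adjusted p = 0.0101), at ZT4 with 3.54 CPM in WT on caloric restriction (adjusted p = 0.000796), and at ZT8 with 3.67 and 2.87 CPM in GR LKO on control diet and caloric restriction (adjusted p = 0.0165 and 0.0300). Cdt1 was no longer rhythmic in WT on control diet without replicate 1, 2 or 3, in GR LKO on control diet without replicate 2, 3 or 4 and in GR LKO on caloric restriction without any 1 replicate; in WT on caloric restriction it passed each time. Tk1 was rhythmic on control diet, with 54.1 CPM at ZT12 and 21.0 CPM at ZT0 in WT (adjusted p = 0.00202) and 48.3 CPM at ZT16 and 27.9 CPM at ZT4 in GR LKO (adjusted p = 0.000724). Of the mitosis genes, Birc5 and Top2a passed in WT on control diet, Aurka in GR LKO on control diet, and Cdca8 and Mki67 in GR LKO on caloric restriction. When any 1 replicate was left out, Birc5, Top2a, Cdca8 and Mki67 no longer passed in these groups, and Aurka passed only without replicate 4. Tk1 was lost in GR LKO on control diet without replicate 1. Top2a did not pass without the high libraries, and in GR LKO on caloric restriction Mcm2, Mcm3, E2f8 and Ccna2 did not.

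Markers of other cells also moved over the day, and their part in these rhythms was not tested. Lymphocyte marker sums were lower in every liver at ZT12 than in any liver of the same group at ZT4: 3.96, 3.20, 3.68 and 4.07 against 10.6, 7.51 and 11.7 CPM in WT and 3.14, 3.84, 3.33 and 5.37 against 14.5, 7.71 and 15.0 CPM in GR LKO on control diet, 2.25, 3.97 and 3.15 against 18.0, 6.77 and 8.23 CPM in WT and 5.30, 4.00 and 6.54 against 11.2, 8.07 and 11.1 CPM in GR LKO on caloric restriction. In the last group they were 18.9, 22.0 and 11.5 CPM at ZT0. Kupffer and myeloid markers did likewise, with 74.3, 58.5, 49.5 and 77.3 against 181, 116 and 157 CPM and 52.6, 75.9, 58.4 and 76.7 against 218, 133 and 252 CPM on control diet and 43.3, 69.6 and 50.5 against 247, 124 and 119 CPM and 121, 97.4 and 123 against 195, 182 and 175 CPM on caloric restriction, in the same order.

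**Figure D4:**
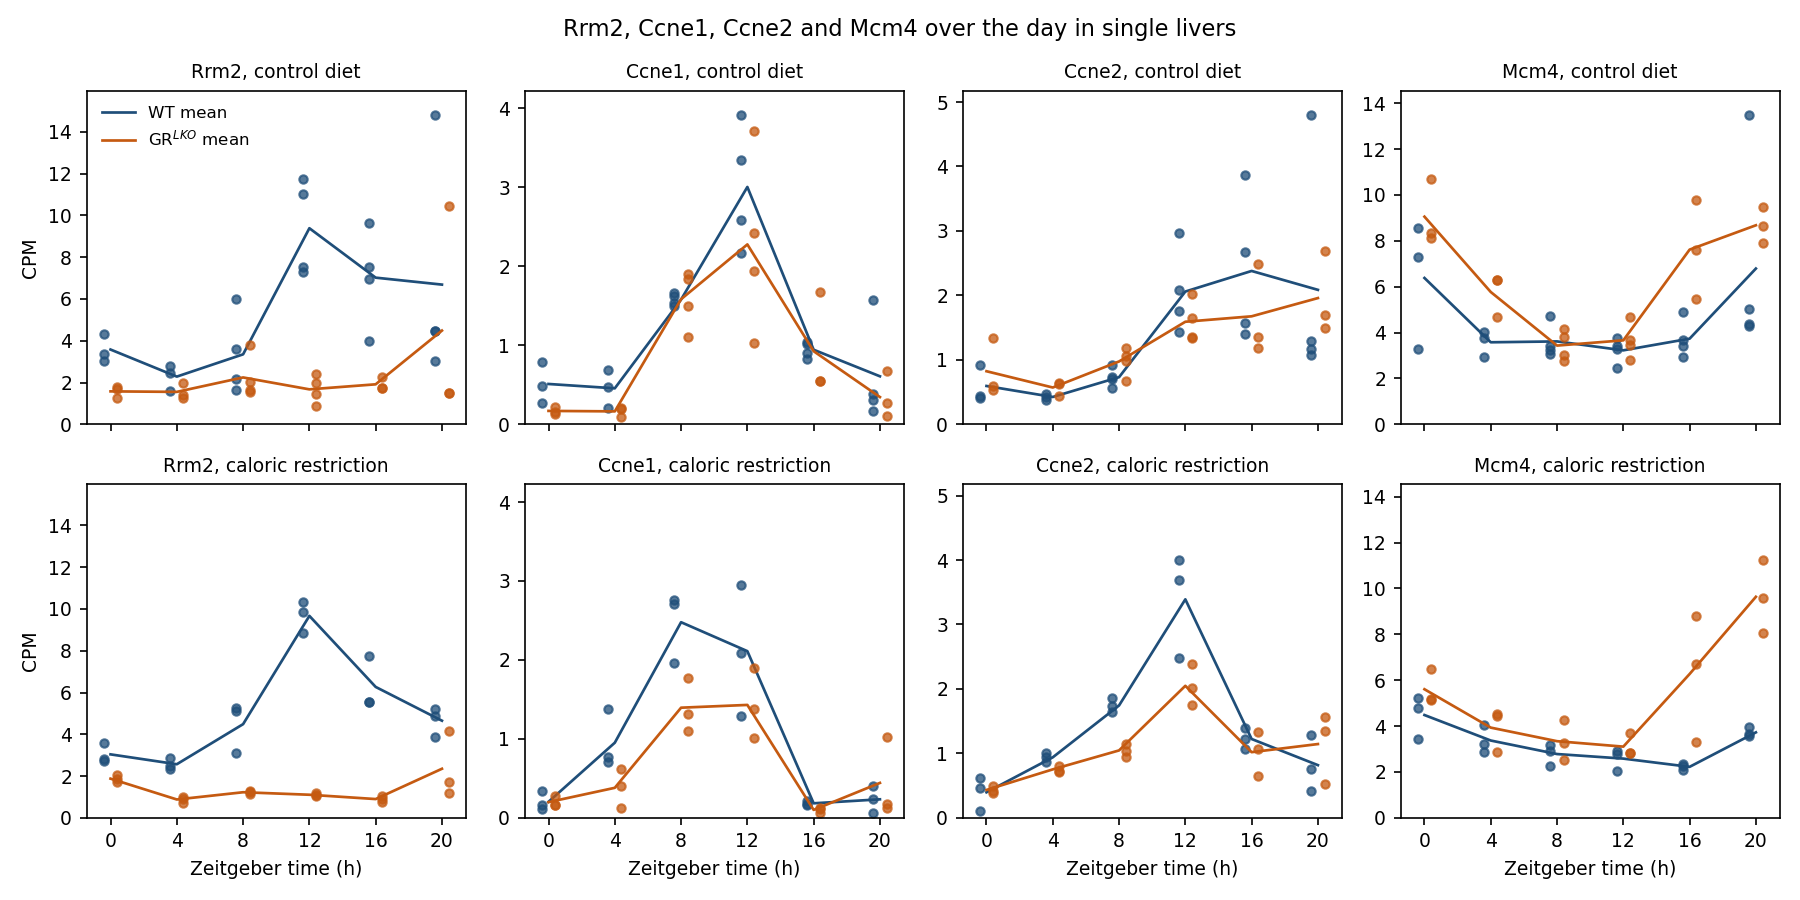
CPM (y axis) of Rrm2, Ccne1, Ccne2 and Mcm4 at each zeitgeber time in hours (x axis), control diet in the top row and caloric restriction in the bottom row; points are single livers and lines join the group means of WT and GR LKO. Rrm2 reaches a mean of 9.67 CPM at ZT12 in WT on caloric restriction and peaks at 2.35 CPM, at ZT20, in GR LKO.

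Of the other pathway genes, 12 of 50 licensing and fork genes were rhythmic in WT on control diet, 19 in WT on caloric restriction, 10 in GR LKO on control diet and 16 in GR LKO on caloric restriction, where the shares over all genes were 30.8%, 27.7%, 27.4% and 25.4%. Genes of G1 and G0 gave 8, 8, 10 and 6 of 27, and genes of G2 and mitosis 9, 11, 5 and 8 of 53, in the same order.

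Promoter sequence is shared information that the choice of genes did not use. Windows of 300 bases (250 before and 50 after the start of the gene, RefSeq, GRCm38.p6, the build also called mm10) were at hand for 31 of the 39 genes, 33 windows in all; Mcm4, Gins2, Foxm1, Ccne2, Ccna2, Aurkb, Kif20a and Tpx2 had none. Searched on both strands, the cell cycle homology region TTTGAA was in 14 of 33 windows (42.4%), against 17.9% of all 32851 windows of this length. The CCAAT box was in 26 (78.8%, against 37.4%), and 1 or more of the E2F motifs TTTCGCGC, TTTGGCGC and TTCCCGCC were in 8 (24.2%, against 2.96%). The motifs were counted by role, and differences between roles were not tested. Of 11 windows of mitosis genes 9 held TTTGAA, 10 held CCAAT and 0 held an E2F motif, and of 8 windows of licensing and fork genes 1 held TTTGAA, 7 held CCAAT and 5 held an E2F motif (Cdt1, Mcm3, Mcm5, Mcm6 and Mcm7). Of 5 windows of nucleotide supply genes, 0 held TTTGAA, 2 held CCAAT and 1 held an E2F motif, of 4 of transcription factors 2, 3 and 1 did, and of 5 of cyclins and kinases 2, 4 and 1 did. These are matches of letters; no binding was measured here. The windows of 4 genes whose RNA differed between the genotypes in opposite directions are given below 5′ to 3′ on the strand of the gene, with matches of the motifs, on either strand, in capitals: Rrm2 at chr12:24708004-24708303 (plus strand), which was lower in GR LKO than in WT, and Mcm3 at chr1:20820263-20820562, Cdc20 at chr4:118437294-118437593 and Top2a at chr11:99024140-99024439 (minus strand), which were higher in GR LKO than in WT on caloric restriction.
Rrm2: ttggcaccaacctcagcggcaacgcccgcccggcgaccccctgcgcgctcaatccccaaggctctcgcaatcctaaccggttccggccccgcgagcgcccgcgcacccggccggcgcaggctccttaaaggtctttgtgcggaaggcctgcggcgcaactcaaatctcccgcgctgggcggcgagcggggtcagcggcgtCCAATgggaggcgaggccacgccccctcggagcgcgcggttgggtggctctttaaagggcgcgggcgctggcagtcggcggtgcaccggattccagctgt
Mcm3: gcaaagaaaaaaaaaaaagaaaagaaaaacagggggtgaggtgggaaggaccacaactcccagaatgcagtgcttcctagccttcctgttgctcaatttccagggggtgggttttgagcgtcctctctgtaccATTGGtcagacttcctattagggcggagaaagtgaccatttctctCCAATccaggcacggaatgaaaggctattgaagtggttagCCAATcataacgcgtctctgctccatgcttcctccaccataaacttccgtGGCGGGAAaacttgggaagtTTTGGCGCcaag
Cdc20: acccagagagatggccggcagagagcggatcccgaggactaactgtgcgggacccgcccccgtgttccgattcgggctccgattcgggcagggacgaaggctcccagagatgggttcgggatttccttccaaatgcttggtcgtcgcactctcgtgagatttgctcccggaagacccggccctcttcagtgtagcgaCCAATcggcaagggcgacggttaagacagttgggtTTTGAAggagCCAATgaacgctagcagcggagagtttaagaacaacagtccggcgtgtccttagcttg
Top2a: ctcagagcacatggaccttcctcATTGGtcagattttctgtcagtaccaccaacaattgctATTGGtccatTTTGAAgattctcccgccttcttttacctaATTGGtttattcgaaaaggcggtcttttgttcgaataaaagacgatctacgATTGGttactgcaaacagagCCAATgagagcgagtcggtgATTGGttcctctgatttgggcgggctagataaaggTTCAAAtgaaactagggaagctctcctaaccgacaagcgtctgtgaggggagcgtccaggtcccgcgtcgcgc
Rrm2 held 1 CCAAT box and no other motif, Mcm3 held CCAAT boxes and E2F motifs, and Cdc20 and Top2a held TTTGAA beside CCAAT boxes.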

How the data were processed

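The deposited tables hold estimated counts per gene, which the authors made with Salmon and summarised with tximport, after quality checks with FastQC and MultiQC. Counts were rounded to whole numbers. Of 27654 genes, 27244 carried a symbol and 410 did not. Another 6 deposited columns, of variance-stabilised values, were not used here. Of 102 pairs of libraries within a group, 0 were identical.

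Each experiment was fitted apart with edgeR 4.0.16 and limma 3.58.1 in R 4.3.3 (TMM scaling, filterByExpr at a minimum count of 10, quasi-likelihood F test, Benjamini-Hochberg adjusted p under 0.05 as the threshold). Effects over the day are means of the genotype difference at 6 time points, and the interaction compares these between diets. Rhythms were tested with JTK_CYCLE on values stabilised with DESeq2 1.42.0, at a period of 24 h and an amplitude over 0.1. Alternatives were DESeq2, RLE scaling, no filter, the replicate number as a block in the design, 1 fit for all libraries of a diet, edgeR tests of rhythm, and leaving out each replicate or time point. Leaving out libraries that stood apart was chosen after seeing the data. The procedure was also run on simulated data, and the outcome is not given here.

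Marker lists covered 11 kinds of cells. Named genes are 17 markers of the cell cycle, up to 12 called members and up to 5 called other pathway genes with the smallest adjusted p in each comparison, and Nr3c1 as a check of labels. The members and lists were chosen with earlier results of these data known. Promoter windows came from RefSeq, GRCm38.p6. Some results for single genes outside the members are not reported here.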

Additional observations from a re-analysis of the deposited data

Results flagged for a closer look

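In groups of 4 livers, a liver was marked when its gap to the nearest of the others exceeded Dixon's limit for the range of its group. Of 132 values examined in 6 groups, 24 were marked, and chance marks about 1 in 20 groups. WT ctrl. ZT20 replicate 4 took 15 of the marks. In it Mki67 was 7.19 CPM (others 0.487 to 0.779), Top2a 4.38 (0.386 to 0.779), Ccna2 2.98 (0.389 to 0.487), Ccnb1 1.65 (0 to 0.0812) and Cdk1 4.38 (0.540 to 0.974). Ccne1 was 1.57 CPM there (0.162 to 0.389), Ccne2 4.80 (1.0799 to 1.2998), Rrm2 14.8 (3.01 to 4.48), Mcm2 13.9 (2.55 to 3.49) and Mcm6 24.9 (2.11 to 2.93). Pcna was 36.7 CPM (19.6 to 21.3), Cdt1 6.70 (1.16 to 1.62) and E2f1 8.43 (3.24 to 3.57), the licensing and fork genes summed to 139 CPM (45.9 to 48.0) and the mitosis genes to 36.9 CPM (7.07 to 7.56).

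The other marks were spread over 4 groups. In GR LKO ctrl. at ZT12, Mki67 was 1.75 CPM in replicate 3 (others 0.589 to 0.738), the mitosis genes summed to 15.3 CPM in the same liver (7.85 to 8.59), and Pcna was 19.6 CPM in replicate 2 (23.3 to 23.8). In GR LKO ctrl. at ZT8, Mcm6 was 5.97 CPM in replicate 3 (3.15 to 3.39). In WT ctrl. at ZT16, E2f8 was 9.31 CPM in replicate 3 (0.734 to 1.95) and the nucleotide supply genes summed to 59.98 CPM in that liver (79.1 to 82.1). In WT ctrl. at ZT8, Mcm5 was 1.42 CPM in replicate 2 (0 to 0.210), and replicate 4 had sums of 55.9 CPM for licensing and fork genes (48.8 to 49.3) and 13.2 CPM for mitosis genes (8.06 to 8.75).

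On caloric restriction, 3 genes had GR LKO livers all above WT livers at 1 time point and all below at another. For Ccna2 the log2 fold change was -0.85 at ZT12, 1.39 at ZT16 and 1.12 at ZT20. For Cdk1 it was -0.32 at ZT8, -0.78 at ZT12 and 2.16 at ZT20, and for Pcna -0.14 at ZT4, -0.25 at ZT12 and 0.44 at ZT20. The ZT20 values include the GR LKO replicate 1 library, which stood apart. These differences between time points were not tested.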

How the results depend on the processing

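Counts of called members moved as follows, and the cause was not tested. Against 14 in the diet experiment, WT livers of the time series at ZT12 gave 5, where Cdca8 turned to a log2 fold change of 0.042. For GR LKO against WT over the day on caloric restriction (15), leaving out ZT20 gave 8. On control diet (7), leaving out ZT0 gave 4, ZT4 2, ZT8 3, ZT12 4 and ZT16 3. Calls over all genes in the fits without a time point are not given here. The calls summed over time points on caloric restriction (6) became 13 with DESeq2 and 22 with 1 fit for all libraries of that diet, and on control diet (2) 5 with DESeq2. The edgeR test for any difference between time points gave 17 of 30 members in WT and 23 of 33 in GR LKO on caloric restriction (8123 of 12624 and 7713 of 12743 genes over all), against 11 and 12 of 39 by JTK_CYCLE (5167 of 18651 and 4814 of 18932).

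Leaving out 1 replicate gave 6 to 16 calls for diet, 0 to 2 for CORT, 11 to 14 for GR LKO on caloric restriction, 2 to 8 on control diet, 0 to 1 for the interaction, 3 to 6 and 1 to 3 for the sums over time points on caloric restriction and control diet, and 3 to 5, 3 to 5, 6 to 12 and 1 to 2 rhythmic genes in WT ctrl., WT cal. res., GR LKO ctrl. and GR LKO cal. res. livers. Rhythmic genes over all fell in the rhythm fits as well, to 1657 to 1896 in WT and 979 to 1722 in GR LKO on caloric restriction. On control diet they numbered 3564 to 4663 in WT and 2066 to 4645 in GR LKO, against 5822 and 5124 with all livers. Calls over all genes in the other fits are not given here.

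Replicate numbers do not pair livers in the labels. In 0 of 14 comparisons did every number correlate, with r from -0.14 to 0.16 over 44 pairs, 4 of them over 0.1, and 13 livers correlated best with their own number. With the numbers as a block edgeR gave 13 calls for diet, 2 for CORT, 15 and 6 over the day on caloric restriction and control diet, 0 for the interaction, and sums over time points of 3 and 1. Under the block the adjusted p was 0.0511 for Bub1b and 0.0575 for Cdca8 in diet, 0.0655 for Mcm3 in CORT, 0.0619 for Rrm2 at ZT8, 0.0679 for Mcm7 at ZT12 and 0.0659 for Mcm6 at ZT20 on caloric restriction, and 0.107 for Rrm2 at ZT16 and 0.0560 for Ccne1 over the day on control diet.

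Of the fits for single named genes, 501 kept direction and side of the threshold, 166 were no longer past it and 1 reversed. RLE scaling shifted the median of all genes by at most 0.014 on the log2 scale. Low counts kept some members out of the edgeR tests.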
